A study of Mus musculus with 4 samples.

Results

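The genes of retinoic acid synthesis, breakdown and response were followed in embryonic mouse gonads. They are the retinaldehyde dehydrogenases Aldh1a1, Aldh1a2 and Aldh1a3, the retinoic acid hydroxylases Cyp26a1, Cyp26b1 and Cyp26c1, the cellular retinoic acid binding proteins Crabp1 and Crabp2, and the receptor Rarb. They were chosen by symbol, and all 9 were found among the 40999 features counted in each library. Gonads came from wild-type C57BL/6J embryos at daily steps between E11.5 and E14.5, with no treatment or transgene. Each time point was 1 library of total RNA from XX and XY gonads mixed in equal numbers. Each pool held 6 or more gonads of each sex, from 2 litters, so a level is an average over both sexes and all cell types. The E11.5 library was made from the genital ridge with its mesonephros, whereas the mesonephros was removed at the later time points. In such bulk samples, fewer cells of a type and less RNA per cell cannot be told apart.

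Retinoic acid is made from retinol, which is oxidized to retinaldehyde and then, by the ALDH1A enzymes, to retinoic acid. CYP26 enzymes oxidize it further and clear it, CRABP proteins carry it in the cytoplasm, and RAR receptors paired with RXR receptors bind DNA and switch target genes when it is present. In the fetal gonad retinoic acid is known for its link to germ cell entry into meiosis, the mesonephros is a known source of it, and CYP26B1 of the somatic cells is known for removing it in the fetal testis.

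Cyp26a1 and Rarb, a breakdown enzyme and a receptor, are known targets of retinoic acid themselves, and their DNA is shown because it holds, near a start site, the kind of repeat that RAR and RXR receptors are known to bind. RefSeq windows of GRCm38.p6, from 250 bases before to 50 bases after an annotated start, were searched on both strands for direct repeats, with 1, 2 or 5 bases between, of the motif AGGTCA, the variant GGGTCA, the variant AGTTCA or the variant GGTTCA, in any combination. Capitals mark the 6-base motifs.
Cyp26a1: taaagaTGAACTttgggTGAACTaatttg
Rarb: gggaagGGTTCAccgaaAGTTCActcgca
The Cyp26a1 stretch is chr19:37697770-37697798 on the plus strand, and its repeat has AGTTCA in both places, 5 bases apart, on the minus strand at -32 to -16 from the start. The Rarb stretch is chr14:16575507-16575535 on the minus strand, with the motifs GGTTCA and then AGTTCA, also 5 bases apart. Its repeat is at -53 to -37 from the annotated start in its window. The stretch lies inside the span of Rarb in the deposited data, chr14:16430624-17172900. Repeats with 5 bases between were in 32 of 32851 windows (0.1%), and any of the repeats searched was in 193 (0.59%). A match is a description of the letters, not a measured binding site. A window was found for 7 of the 9 genes, all but Aldh1a3 and Crabp2, and 2 of these 7 held a repeat. Of 49 other pathway genes, 38 had a window and 1 held a repeat.

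The libraries held 25593453 to 31752562 deduplicated counts. Rn18s-rs5, the 18S ribosomal RNA gene, took 9.06% of counts at E11.5, between 1.03% and 1.31% in the next pair of libraries and 40.65% at E14.5, so the share left for other genes was smallest at E14.5. For this reason levels over time are given as scaled CPM, counts (CPM) over a library size scaled by TMM over all 4 libraries, with an exact Poisson 95% interval. Levels of different genes are compared within a library as TPM, which is per exon length. A pair of time points was compared by the log2 fold change after TMM scaling of that pair, with positive values for a higher level at the later time point and an exact Clopper-Pearson 95% interval in brackets. A gene was called at a log2 fold change of at least 1 in either direction. With 1 library per time point there is no replicate check, no p-value is given, and all intervals cover counting error only. Where 4 values follow each other, they are in the order of time from E11.5 on.

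**Figure D1:**
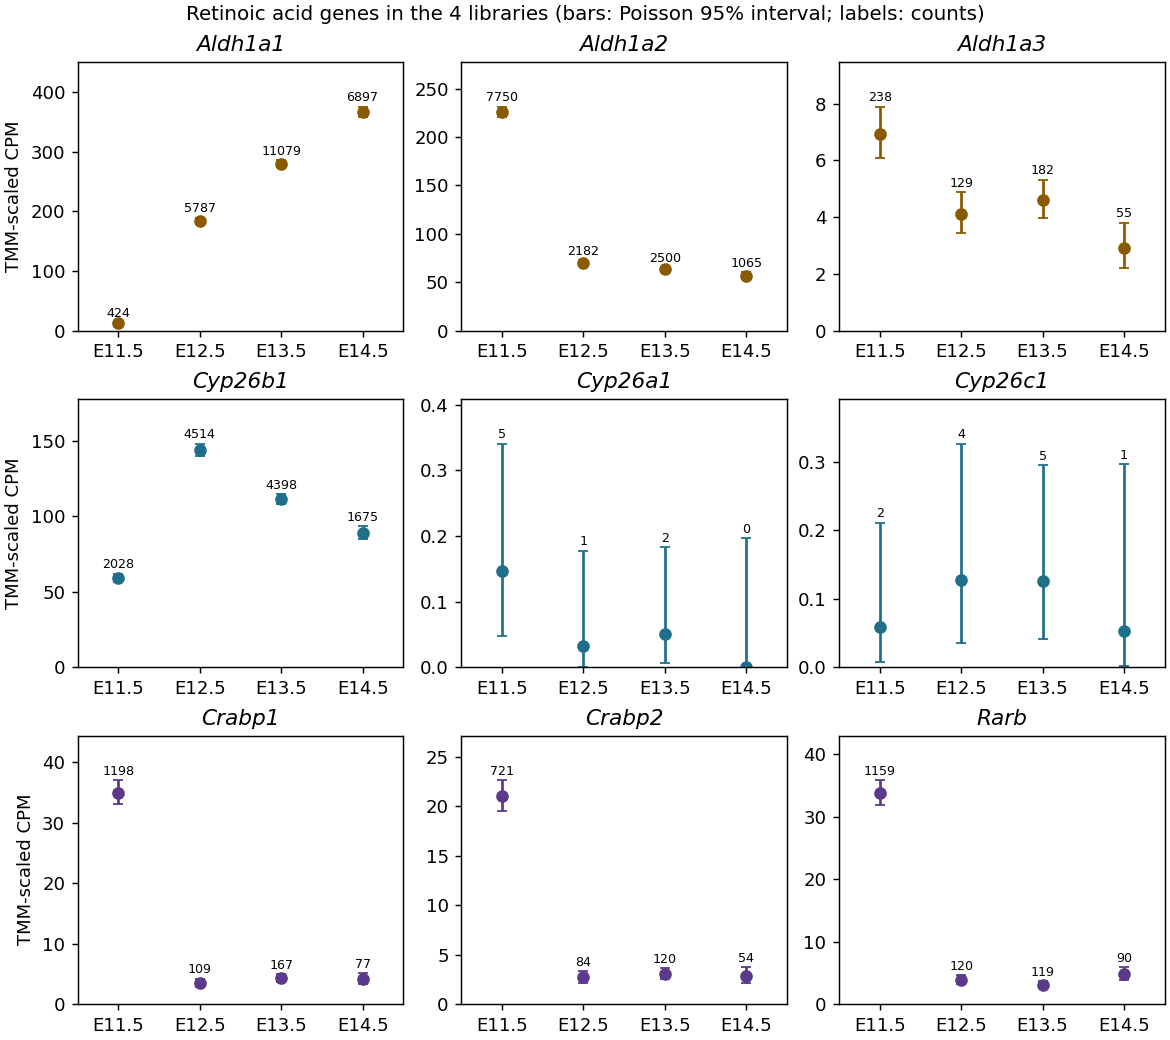
Scaled CPM (vertical axis, linear, own scale in each panel) of the 9 retinoic acid genes in the 4 libraries (horizontal axis), with 1 point per library, Poisson 95% intervals as bars and deposited counts as labels. Aldh1a1 goes from 12.4 to 367 scaled CPM, while Aldh1a2, Crabp1, Crabp2 and Rarb are highest at E11.5, and Cyp26a1 and Cyp26c1 have at most 5 counts.

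Between E11.5 and E12.5 the synthesis enzymes exchanged places. Aldh1a1 rose 14.9-fold, Cyp26b1 rose 2.43-fold, and Aldh1a2, Crabp2, Rarb and Crabp1 fell, so 6 of the 7 genes that passed the filter on low counts were called. Of the 19215 genes tested in this pair, 17.8% were called, 8.64% up and 9.11% down, and the retinoic acid genes gave 2 up and 4 down. Their median log2 fold change was -1.70, beside -0.004 over all genes tested. Cyp26a1 and Cyp26c1 did not pass the filter. In the same pair of libraries the summed level of 10 mesonephros markers went from 233 to 28.8 scaled CPM, and by design the E11.5 tissue alone held the mesonephros.

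Aldh1a1 (chr19:20601982-20643462, plus strand), a retinaldehyde dehydrogenase, had 424, 5787, 11079 and 6897 counts. These are 12.4 (11.2–13.6), 185 (180–189), 280 (275–285) and 367 (358–375) scaled CPM, and no interval overlaps another. By TPM it ranked 8080 among all features at E11.5 and 511, 314 and 332 at the later time points. The log2 fold change was 3.90 (3.76–4.04) at E12.5, 0.60 (0.55–0.65) from E12.5 to E13.5 and 0.41 (0.36–0.45) from E13.5 to E14.5, where it depends on the scaling and was -0.67 with total counts. Most of its difference between the E11.5 and E14.5 libraries on the log2 scale thus lay in the step to E12.5.

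Aldh1a2 (chr9:71215789-71296243, plus strand), the main retinoic acid synthesis enzyme of many embryonic tissues, went the other way. It had 7750, 2182, 2500 and 1065 counts. The scaled CPM were 226 (221–231), 69.6 (66.7–72.6), 63.2 (60.8–65.7) and 56.6 (53.3–60.1), the highest at E11.5 and the other three within a narrow range. It fell by 1.70 on the log2 scale (-1.77 to -1.63), a 3.25-fold fall, and its later log2 fold changes were both -0.14.

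Aldh1a3 (chr7:66390892-66427477, minus strand), the remaining enzyme of the family, was low throughout, with 238, 129, 182 and 55 counts. Its scaled CPM was 6.95 (6.09–7.89), 4.11 (3.43–4.89), 4.60 (3.96–5.32) and 2.92 (2.20–3.80). The E12.5 interval overlaps those of both later libraries, but the E13.5 and E14.5 intervals do not overlap each other. Its log2 fold change at E12.5 was -0.76 (-1.08 to -0.44), which did not reach the threshold.

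Aldh1a7, a close relative of Aldh1a1 that is not counted among the retinoic acid enzymes here, had 152, 1014, 1390 and 584 counts and rose by 2.86 on the log2 scale (2.62–3.12) at E12.5. The annotated Aldh1a1 and Aldh1a7 transcripts share 151 of 2309 stretches of 50 bases (6.54%) and 1 of 2259 stretches of 100 bases. The study describes its genes as identified from uniquely mapped reads. The TPM of Aldh1a1 was 2.83 times that of Aldh1a7 (2.35–3.40), 5.79 times (5.41–6.19), 8.08 times (7.64–8.54) and 11.97 times (11.003–13.03). The intervals of this ratio do not overlap between any of the libraries.

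The make-up of the family turned over with these changes. Aldh1a2 held 92.5% of the summed TPM of Aldh1a1, Aldh1a2 and Aldh1a3 at E11.5, where Aldh1a1 held 5.64%. At E12.5 Aldh1a1 held 74.0% and Aldh1a2 25.04%, and at E14.5 the shares were 87.5% and 12.1%. Within each library, which does not depend on the scaling between libraries, the ratio of Aldh1a1 to Aldh1a2 was 0.061 (0.055–0.067), 2.96 (2.81–3.10), 4.94 (4.73–5.16) and 7.22 (6.76–7.70).

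Cyp26b1 (chr6:84571414-84593908, minus strand) was the breakdown enzyme of these gonads, with 2028, 4514, 4398 and 1675 counts. Its scaled CPM was 59.2 (56.7–61.8), 144 (140–148), 111 (108–115) and 89.0 (84.8–93.4). It was lowest at E11.5 and highest at E12.5, and no interval overlaps another. The log2 fold change was 1.28 (1.21–1.36) at E12.5, then -0.37 (-0.44 to -0.31) and -0.30 (-0.38 to -0.22), neither of which reached the threshold.

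Cyp26a1 (chr19:37697808-37701536, plus strand) had 5, 1, 2 and 0 counts. The count of 0, at E14.5, has an upper Poisson limit of 0.196 scaled CPM. Cyp26c1 (chr19:37685680-37693307, plus strand), its neighbour on chromosome 19, had 2, 4, 5 and 1 counts. Both were near the limit of detection, their intervals overlap between all libraries, and a difference between time points was not detectable at this depth. Cyp26b1 accordingly made up between 98.8% and 99.8% of the summed TPM of the Cyp26 genes.

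The summed TPM of the Aldh1a genes was 10.95 times that of the Cyp26 genes (10.43–11.501), 5.16 times (4.97–5.35), 9.07 times (8.77–9.39) and 14.04 times (13.32–14.80). The ratio was lowest at E12.5 and highest at E14.5. For Aldh1a2 alone the ratio to Cyp26b1 was 10.3 at E11.5 (9.76–10.8) and 1.30, 1.53 and 1.71 afterwards, whereas Aldh1a1 had 0.62 times the TPM of Cyp26b1 at E11.5 (0.56–0.69) and 12.3 times at E14.5 (11.67–12.98). These are ratios of RNA levels over all cells of a pool, not of enzyme activity.

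**Figure D2:**
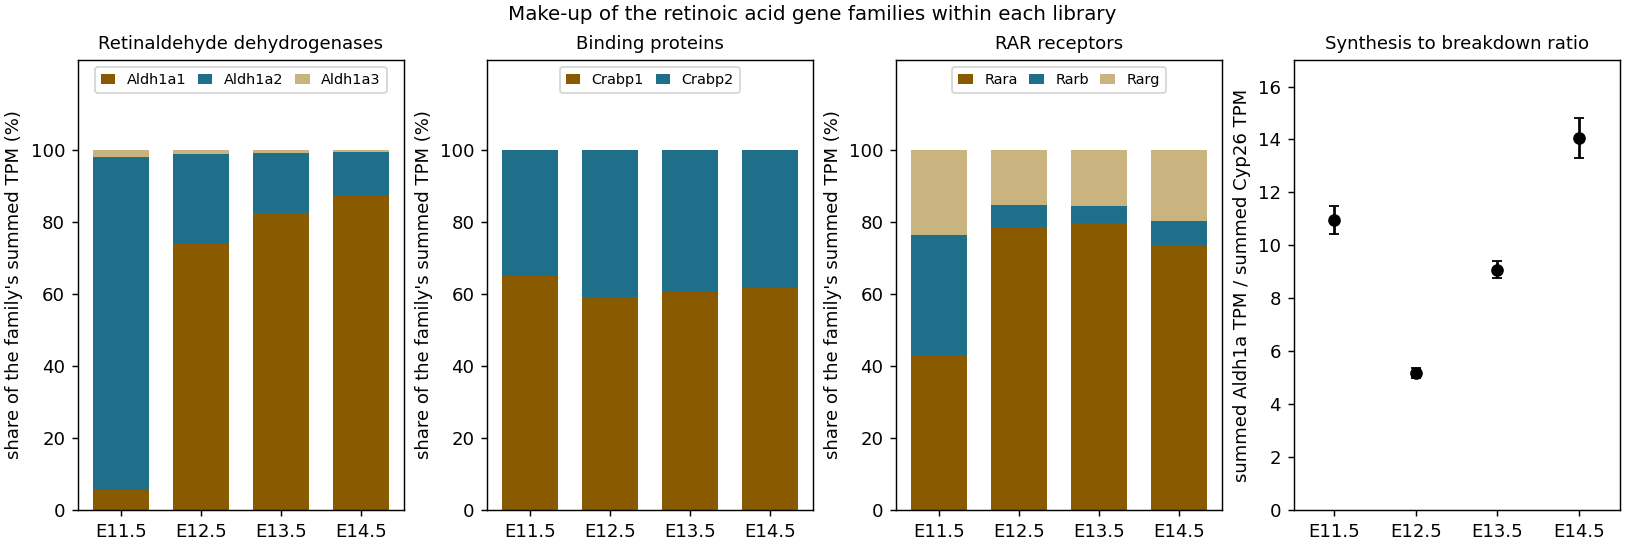
Stacked bars give each gene's share (%) of its family's summed TPM in the 4 libraries for the Aldh1a enzymes, the Crabp proteins and the RAR receptors, and the right panel gives the summed Aldh1a TPM over the summed Cyp26 TPM with counting 95% intervals. Aldh1a2 fills 92.5% of its family at E11.5 and Aldh1a1 74.0% to 87.5% afterwards, Rarb shrinks from 33.4% of the RAR genes to at most 6.61%, and the ratio is lowest at E12.5, at 5.16.

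The binding proteins fell together. Crabp1 (chr9:54764748-54773110, plus strand) had 1198, 109, 167 and 77 counts, which are 35.0 (33.03–37.02), 3.48 (2.85–4.19), 4.22 (3.61–4.91) and 4.09 (3.23–5.11) scaled CPM. Crabp2 (chr3:87948693-87953372, plus strand) had 721, 84, 120 and 54 counts, which are 21.1 (19.5–22.6), 2.68 (2.14–3.32), 3.03 (2.52–3.63) and 2.87 (2.16–3.74) scaled CPM. For both genes the E11.5 library stood above the rest, and the E12.5, E13.5 and E14.5 intervals overlap each other. The log2 fold change at E12.5 was -3.33 (-3.63 to -3.05) for Crabp1 and -2.97 (-3.32 to -2.65) for Crabp2, a 10.05-fold and a 7.84-fold fall. Crabp1 held 59.3% to 65.1% of their summed TPM in every library, and the intervals of their ratio overlap between all 4 libraries.

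Rarb (chr14:16430624-17172900, minus strand), the retinoic acid receptor gene that is itself a textbook target of retinoic acid, had 1159, 120, 119 and 90 counts. The scaled CPM was 33.8 (31.9–35.8), 3.83 (3.17–4.58), 3.01 (2.49–3.60) and 4.78 (3.85–5.88). It fell by 3.14 on the log2 scale at E12.5 (-3.43 to -2.87), an 8.83-fold fall, and its log2 fold change was -0.35 (-0.73 to 0.03) at E13.5 and 0.69 (0.28–1.09) at E14.5. Of the 3887 exon bases of Rarb in the files, 164 are shared with Top2b on the opposite strand, a gene of 3680 to 10454 counts. Whether strand was used in counting is not given in the sources used here.

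Of its sister receptors, Rarg fell in the same step and Rara was not called. Rara had 1860, 1951, 2634 and 1247 counts and a log2 fold change of 0.20 (0.10–0.29) at E12.5. Rarg, with 716, 270, 365 and 236 counts, fell by 1.28 on the log2 scale (-1.49 to -1.08). Rarb made up 33.4% of the summed TPM of the RAR genes at E11.5 and 6.01%, 4.49% and 6.61% later, while Rara went from 43.1% to 78.6% at E12.5. The RXR genes, whose proteins pair with RARs, had log2 fold changes of 0.07 for Rxra, -0.06 for Rxrb and -0.07 for Rxrg at E12.5, the last on only 23 and 20 counts.

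The E11.5 library differs from the rest in its tissue as well as its age, and marker genes were measured beside these changes. Of 10 mesonephros markers, among them Pax2, Wnt9b, Cdh16, Gata3, Six2, Sim1 and Foxd1, 8 fell at E12.5, all but Pax8 and Lhx1, and their summed level was 233 scaled CPM at E11.5 against 28.8, 22.7 and 27.2 later. At E12.5 the uncalled Pax8 and Lhx1 held 9.02 and 9.54 scaled CPM of the 28.8. None of the 10 was at 0 in any library. In the same step all 5 germ cell markers rose, with summed levels of 11.7 and 270 scaled CPM, as did all 5 fetal Leydig markers (12.8 and 164), 5 of 7 Sertoli cell markers (103 and 565) and 5 of 7 pregranulosa markers (142 and 240), so that the defining genes of the gonad were present. Macrophage markers fell for 3 of 4 genes (51.0 and 24.2). The summed mesothelium markers were at 107 and 106, the endothelial ones at 341 and 340, the interstitial ones at 887 and 798 with 1 of 5 genes called, up, and the erythroid ones at 1528 and 2302 with 1 of 5 called, up. Aldh1a2, Crabp1, Crabp2 and Rarb thus moved in the same direction as the summed mesonephros and macrophage markers. Aldh1a1 and Cyp26b1 moved in the direction of the germ cell, fetal Leydig, Sertoli cell and pregranulosa lists and of the erythroid sum. The interstitial sum, lower at E12.5, did not move with Aldh1a1 and Cyp26b1. The part of the mesonephros and of the cell make-up in these differences was not tested, and tissue and age cannot be told apart between these libraries.

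**Figure D3:**
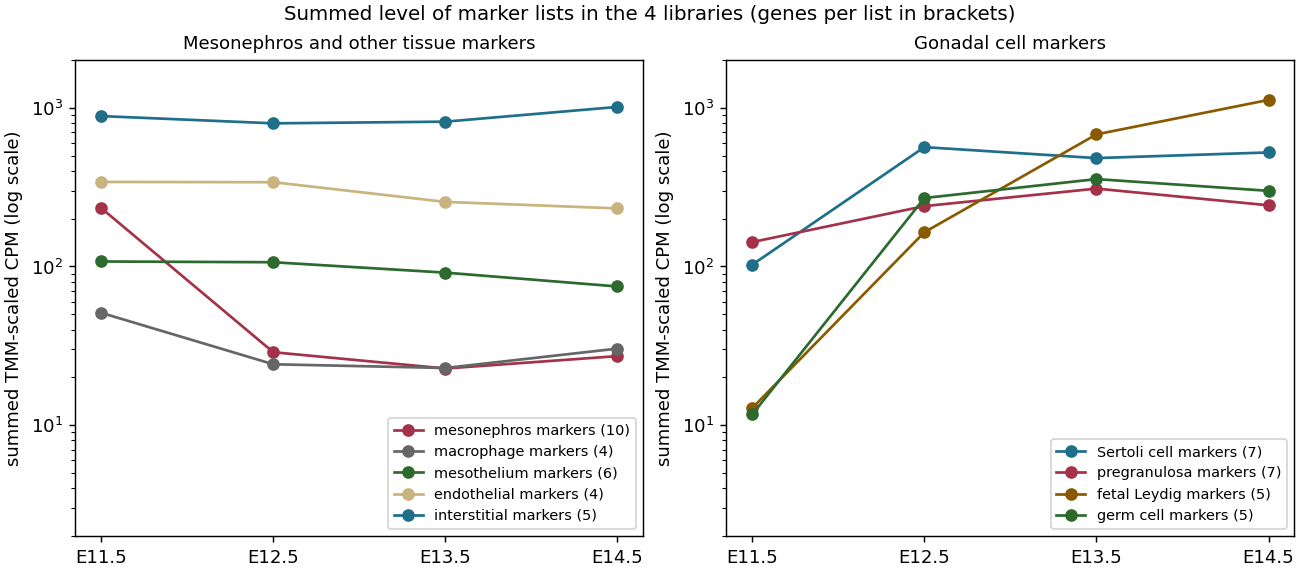
Summed scaled CPM (log axis) of marker lists in the 4 libraries, with 1 point per library, no error bars, and the number of genes in brackets. The mesonephros list drops from 233 at E11.5 to between 22.7 and 28.8 afterwards, the germ cell list climbs from 11.7 to 270, and the fetal Leydig list climbs in every step, to 1122.

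Other genes of the pathway were taken from 4 lists of retinol transport and oxidation, other retinaldehyde dehydrogenases, receptors and partners, and response genes, 49 genes in all. At E12.5, 37 of them were tested, 4 rose, 9 fell and 24 were not called, with a median log2 fold change of -0.06, beside 8.64% of all genes tested up and 9.11% down. Stra6 and Dhrs3 stand in both the first and the last list, so the counts by list add to more than these.

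In retinol transport and oxidation 2 rose and 3 fell of 13 tested. Among the falls were Stra6, the retinol uptake receptor, by 1.94 (-2.10 to -1.78, 1703 and 406 counts), and Rdh10, which oxidizes retinol to retinaldehyde, by 1.64 (-1.78 to -1.496, 1759 and 517 counts). Dhrs3, which reduces retinaldehyde back to retinol, had a log2 fold change of -0.93 (-1.05 to -0.81). The TPM of Rdh10 was 1.26 times that of Dhrs3 at E11.5 (1.18–1.34) and 0.77, 0.76 and 0.69 times at the later time points. The genes that rose were low: 1300002K09Rik, listed in RefSeq as Stra6l, with 14 and 48 counts, and Rdh1 with 13 and 32. Both were called down from E13.5 to E14.5, at 3 counts each in the later library, with log2 fold changes of -2.54 (-4.91 to -0.92) for 1300002K09Rik and -1.62 for Rdh1, whose counting interval of -4.04 to 0.11 includes 0. Rdh1 was also called down from E12.5 to E13.5, at -1.01 (-1.90 to -0.17).

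Among 13 receptors and partners, Ncoa1, a nuclear receptor coactivator, rose by 1.07 (0.96–1.17) and Rarg fell, and the remaining 11 were not called. From E12.5 to E13.5 none of the 13 was called, beside 5.27% of all genes tested. From E13.5 to E14.5 again none was called, beside 8.95%. A count of 0 among 13 genes is close to these shares.

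Among 12 response genes tested, 6 fell and none rose at E12.5. Among them, the homeobox and orphan receptor genes Nr2f1 (-2.53, -2.65 to -2.41), Meis2 (-2.20, -2.27 to -2.13) and Meis1 (-1.47, -1.53 to -1.41) were lower, with Stra6. Hoxb1 had 55 counts at E11.5 and 0 at E12.5, which is at least 16.8-fold lower when the E12.5 library is put at 3 counts. The median of the list was -1.20, with Hoxb1 at that bound.

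**Figure D4:**
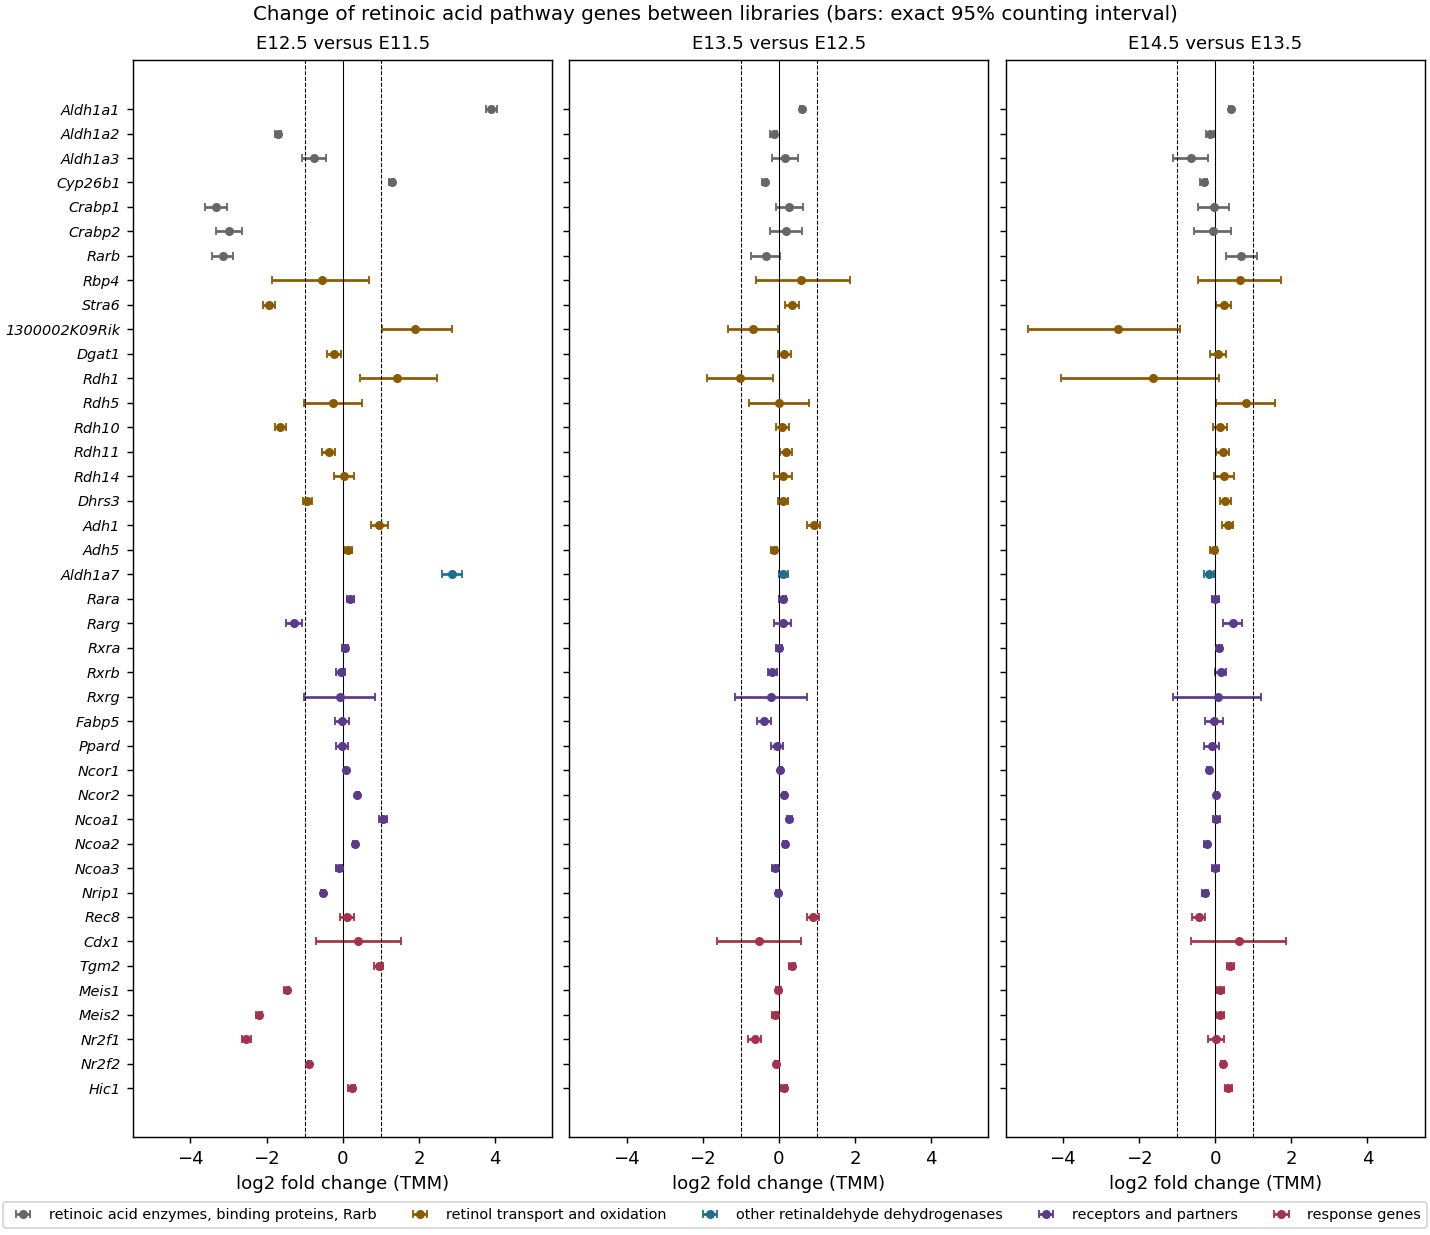
Log2 fold change after TMM scaling (horizontal axis) of the pathway genes tested at E12.5 in the 3 steps between neighbouring time points, with exact 95% counting intervals as bars, dashed lines at the threshold and colours for the gene lists. Hoxb1 and Stra8, which have a library at 0 in the left comparison, are not drawn, nor are some other genes of the lists. Large differences sit in the left panel, from -3.33 for Crabp1 to 3.90 for Aldh1a1, and in the middle panel Crabp1 is at 0.28 and Aldh1a1 at 0.60.

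From E12.5 to E13.5, none of the 7 retinoic acid genes tested was called, beside 5.27% of 19152 genes (3.28% up and 1.98% down). Their log2 fold changes ran from -0.37 for Cyp26b1 to 0.60 for Aldh1a1, with a median of 0.16. Of the other pathway genes, 38 were tested and the one that rose was Stra8, the germ cell gene induced by retinoic acid before meiosis, with 0, 3, 430 and 272 counts and a log2 fold change of 6.77 (5.27–9.11). Rec8, a meiotic cohesin, had 463, 456, 1074 and 374 counts and a log2 fold change of 0.90 (0.74–1.06), short of the threshold. The breakdown enzyme Cyp26b1 had 4514 and 4398 counts in the same pair of libraries. After scaling these are 144 and 111 scaled CPM, and the interval of its log2 fold change, -0.44 to -0.31, excludes 0.

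From E13.5 to E14.5, again none of the 7 was called, beside 8.95% of 18992 genes (6.44% up and 2.51% down). Their log2 fold changes ran from -0.64 for Aldh1a3 (-1.10 to -0.19) to 0.69 for Rarb. Of the 38 other pathway genes tested, 1 rose and 2 fell. The directions here rest on the scaling. With total counts in place of TMM, the median of all genes tested was -1.07, 323 genes were up and 11598 down, against 1223 and 477 with TMM, and Aldh1a1 was at -0.67 in place of 0.41.

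Over the 3 libraries without mesonephros, from E12.5 to E14.5, Aldh1a1 alone was called, at 1.002 (0.95–1.05), beside 11.8% of 18704 genes (8.44% up and 3.33% down). This pair shares its libraries with the steps within it. The value sits at the threshold, and with total counts it was -0.05, where the median of all genes tested was -1.04. Cyp26b1 was at -0.68 (-0.76 to -0.60) and Aldh1a2 at -0.29 (-0.39 to -0.18), and Aldh1a3, Crabp1, Crabp2 and Rarb lay between -0.48 and 0.33. Of the 38 other pathway genes tested, 3 rose and 2 fell, among them Adh1, an alcohol dehydrogenase that can oxidize retinol, which rose by 1.24 (1.06–1.42) with 240, 428, 1018 and 601 counts in the 4 libraries. Relative to each other, which no scaling changes, Aldh1a1 gained on Aldh1a2 and on Cyp26b1 at every step.

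The genes whose levels ran most like each of the 7 were sought among 14070 genes with at least 100 counts in their highest library, by the Euclidean distance between centred log2 scaled CPM over the 4 libraries. For Aldh1a1 these were Prss35 (distance 0.15; 210, 2516, 5375 and 3326 counts), C7 (0.17) and Acsbg1 (0.24), and for Aldh1a2 Scn8a (0.09), Zfp608 (0.10) and Ccdc40 (0.11). Cyp26b1 ran closest to Mmp28 (0.06; 229, 487, 501 and 187 counts), Gpr37 (0.07) and Pdlim1 (0.08), and Aldh1a3 to Grip1 (0.06), LOC102640935 (0.07) and Rbm24 (0.09). Crabp1 was closest to Zcchc18 (0.13), Hoxc10 (0.24) and Crabp2 (0.26), Crabp2 to G630016G05Rik (0.16), Cdh8 (0.24) and Ptx3 (0.25), and Rarb to Lrriq1 (0.22), Lsamp (0.22) and Cpm (0.25). Between the retinoic acid genes themselves the distance was smallest for Crabp1 and Crabp2 and largest for Aldh1a1 and Rarb, at 6.60. Distances over 4 points describe these libraries only, and 19 genes lay within 0.5 of Aldh1a1 but 593 within 0.5 of Aldh1a3.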

How the data were processed

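Total RNA of 4 pooled gonad samples was sequenced, 1 library per time point, grouped by the deposited titles. The authors depleted rRNA, built stranded libraries with UMIs, aligned reads with STAR to mm10 (also named in the submitters' processing notes), removed duplicates and counted reads per gene with featureCounts. The deposited count is this raw count per gene, and the deposited TPM and RPKM were made by the authors from it and the exon length (RPKM was not used here). The study describes genes as identified from uniquely mapped reads. The strand setting and annotation release are not given in the sources used here.

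Counts were scaled by TMM in edgeR 4.0.16 (R 4.3.3) over genes kept by filterByExpr, with a prior count of 0.125. DESeq2 1.42.0 size factors and 12 other settings were tried. edgeR's exact test, at a preset or pooled dispersion, entered only as an alternative. TPM scaled by TMM, once intended, was replaced by scaled CPM, since TPM has its own denominator. Poisson intervals were computed with scipy 1.17.1, and fold estimates were checked on simulated data. Both simulated libraries of a pair had the same expected make-up, apart from genes given a known fold. The check therefore does not cover the unequal rRNA share of the E14.5 library. The genes named are the 9 genes, called genes of the 4 pathway lists with Rara, Rarg, the RXR genes, Rdh10, Dhrs3, Stra8 and Rec8, the 3 most alike genes, and overlapping features. Other pathway genes are plotted only. The genes and lists were chosen with earlier results of these data known. Start-site windows are from RefSeq. Protein sequences were not used here. A few listed genes are left unnamed.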

Additional observations from a re-analysis of the deposited data

How the results depend on the processing

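At E12.5 versus E11.5 the number of called retinoic acid genes was 6 under 9 of the 13 alternatives, including every other scaling. It was 8 with no filter (Cyp26a1 and Cyp26c1 added, on 5 counts or fewer), 4 at a log2 fold change of at least 2 (without Cyp26b1 and Aldh1a2), 3 in edgeR's exact test at a biological coefficient of variation of 0.4 (Aldh1a1, Crabp1 and Rarb) and 4 with the dispersion taken from the 4 libraries. At E13.5 versus E12.5 it was 0 under all 13. At E14.5 versus E13.5, in place of 0, it was 5 with total counts, 6 with the deposited TPM and 2 with no filter, all down. At E14.5 versus E12.5, in place of 1, it was 3 with total counts and 6 with the deposited TPM, all down, 2 with no filter (Cyp26a1 and Cyp26c1, down), and 0 with DESeq2 size factors, totals without rRNA and the 10 most abundant genes, at least 10 counts in both libraries, the 4 libraries scaled together, a log2 fold change of at least 2, the whole counting interval past the fold, a biological coefficient of variation of 0.4 and the dispersion of the 4 libraries. The log2 fold change of Aldh1a1 in that pair changed sign with total counts (-0.048) and the deposited TPM (-0.50). By construction, these last settings leave the rRNA share of the E14.5 library in the denominator: with TPM the median gene was at -1.63 from E13.5 and -1.49 from E12.5. The synthesis to breakdown ratio by summed counts was 4.13, 1.79, 3.12 and 4.78, and with Aldh1a7 added 5.82, 10.001 and 15.1 at the later time points, so E12.5 was lowest and E14.5 highest in each. Pearson correlation gave none of the same alike genes. Over all genes, calls at E12.5 ran from 286 to 10252 over the settings, against 3412, from 1 to 7493 at E13.5, against 1009, from 31 to 17119 at E14.5 versus E13.5, against 1700, and from 72 to 15720 at E14.5 versus E12.5, against 2202. The deposited TPM gave 2299 up and 1254 down at E12.5, against 1661 and 1751, and 844 up and 280 down at E13.5, against 629 and 380. No paired analysis was possible because each time point has 1 library, and for the same reason no library could be left out.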
